A study of Gallus gallus with 4 samples.

Results

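Peaks of the chromosome-compacting complex condensin that lie near the ends of assembled chicken chromosomes are described here. They were chosen by position in the deposited peak lists (build galGal4), on chromosomes 1 to 28 and Z. A peak was taken if its start lay within the first 50 kb of its chromosome, or if its end lay within 50 kb of the highest coordinate that either list reaches there. This gave 149 of 6474 SMC2 peaks and 118 of 4369 CAP-H peaks, or 267 of 10843 in all. On those 29 chromosomes the lists held 5472 SMC2 and 3764 CAP-H peaks, so 2.72% and 3.13% of the placed peaks lay in end windows that made up 0.290% of the listed length.

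The cells were DT40, a chicken lymphoma B cell line, of which 2 knockout lines were compared: a line rescued by SBP-tagged SMC2 and a line rescued by SBP-tagged CAP-H. In all samples 2 ng/ml doxycycline kept the untagged protein suppressed, so that the tagged form stood in for it, and 500 ng/ml nocodazole held the cells in mitosis. DNA crosslinked with 1% formaldehyde was isolated on streptavidin, with 1 pull-down library and 1 input per subunit; the inputs were not analysed here. There were no replicates, so all intervals are at 95%, cover counting error only and carry no test, and they are too narrow where neighbouring peaks depend on each other. The depth of the libraries is unknown, and the labels do not say whether each line is a single clone.

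Condensin is a ring-shaped complex that folds chromatin into loops and stiffens chromosomes for their separation in cell division. SMC2 is an ATPase subunit of both condensin I and condensin II, whereas CAP-H is the subunit that closes the ring of condensin I. Chromosome ends carry telomeric repeats, and in fission yeast condensin is needed to separate sister telomeres in anaphase. The first base of an assembled chromosome need not be its telomere. The far side was moreover set by the peaks themselves, so that each chromosome had at least 1 peak there by construction; which side of a chromosome is its short arm was not used here.

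Peaks of both subunits were present at most far ends and at fewer of the first-base ends. On the first-base side 10 of 29 chromosomes had SMC2 and CAP-H peaks that overlapped, 3 had peaks of both without overlap, 7 had SMC2 peaks alone, 4 had CAP-H peaks alone and 5 (chromosomes 5, 8, 13, 21 and Z) had none. On the far side 24 of 29 had overlapping peaks, 2 had both without overlap, 2 had SMC2 alone and 1, chromosome Z, had CAP-H alone. SMC2 peaks were present at both ends of 20 chromosomes and CAP-H peaks at both ends of 15. These far-side counts include the peaks that set the end. Without the outermost far peak and those overlapping it, 24 far ends held SMC2 peaks and 25 held CAP-H peaks. Over the first-base sides, 20 of 29 windows (69.0%, exact binomial interval 49.2 to 84.7) held at least 1 SMC2 peak, against 14.7% of the 19945 inner windows of 50 kb. For CAP-H it was 17 of 29 (58.6%, 38.9 to 76.5), against 11.2% of inner windows. When every chromosome weighed the same, as it does among the ends, the inner shares were 35.5% for SMC2 and 25.6% for CAP-H, both below the interval of the ends. On chromosomes 11 to 28 alone, 13 of 18 first-base windows (72.2%, 46.5 to 90.3) held an SMC2 peak, and the equally weighted inner share of 50.4% lay inside that interval. For CAP-H 12 of 18 did (66.7%, 41.0 to 86.7), and the inner share of 35.3% lay below the interval.

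**Figure D1:**
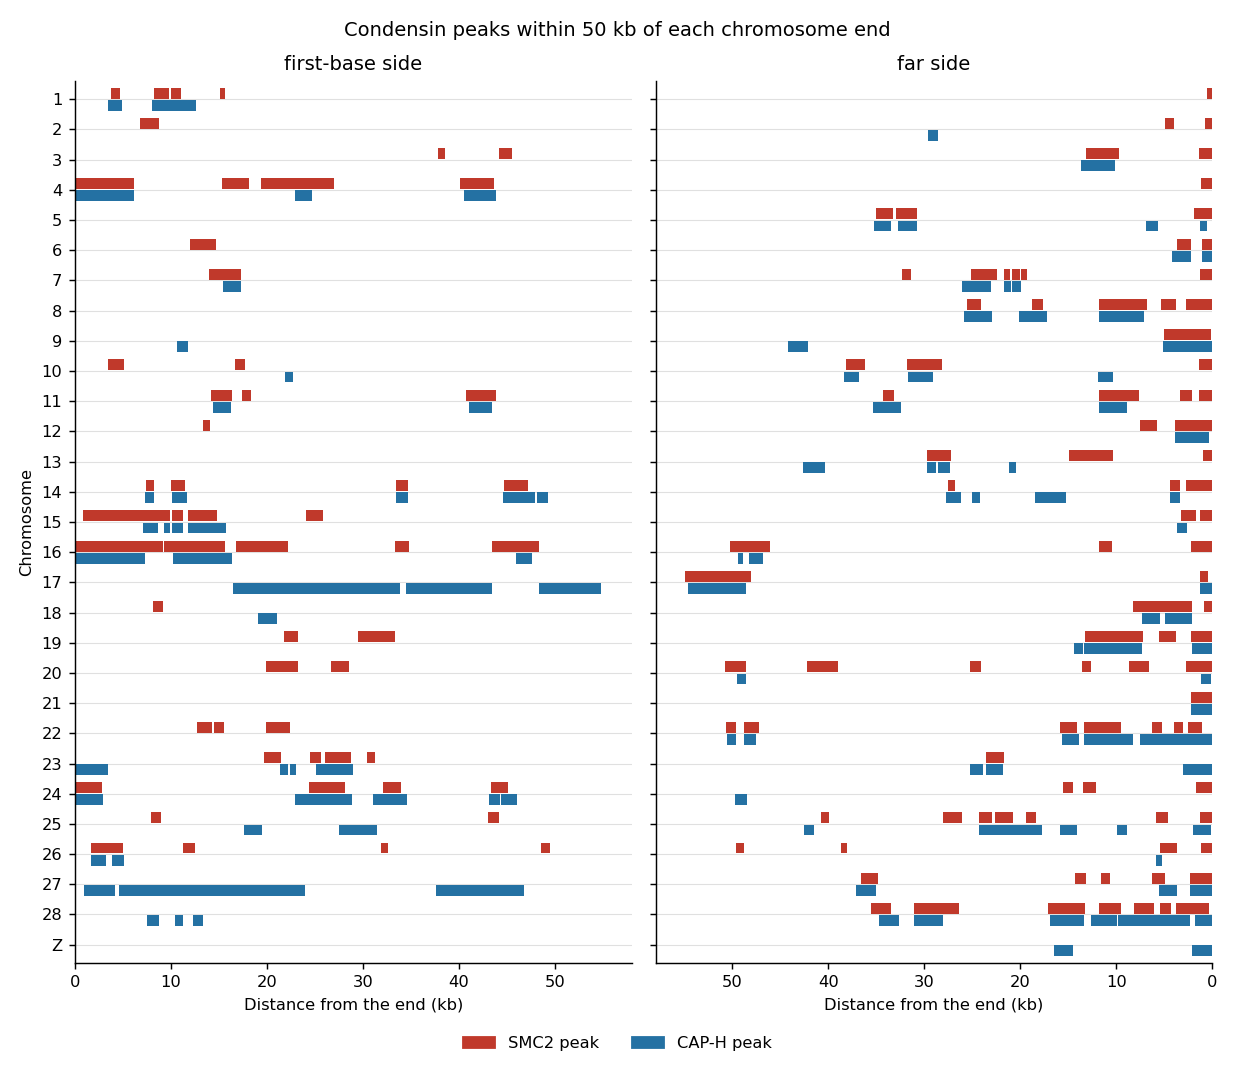
Peaks in the first 50 kb (left) and the last 50 kb (right) of 29 chromosomes, drawn to scale as bars from their outer to their inner edge, by distance from the end in kb, with SMC2 above CAP-H in each row. Far sides reach the axis because the outermost peak sets the end; the first-base rows of chromosomes 5, 8, 13, 21 and Z are empty, and those of chromosomes 17 and 27 hold wide CAP-H peaks and no SMC2 peak.

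The end windows with most SMC2 peaks were far sides of small chromosomes. The far sides of chromosomes 20, 22, 25 and 28 had 7 SMC2 peaks each, and the far side of chromosome 7 and the first-base side of chromosome 16 had 6 each. For CAP-H the far side of chromosome 28 led with 6 peaks. The far sides of chromosomes 22 and 25 and the first-base sides of chromosomes 14, 15 and 24 followed with 5 each. Chromosome 28 was uneven: its far side held 7 SMC2 and 6 CAP-H peaks, and its first-base side 0 SMC2 and 3 CAP-H peaks. In all, 10 of 29 first-base windows (34.5%, 17.9 to 54.3) held 3 or more SMC2 peaks, against 2.59% of inner windows, or 12.3% with every chromosome weighing the same. For CAP-H it was 11 of 29 (37.9%, 20.7 to 57.7), against 1.63%, or 6.87% with equal weights. On chromosomes 11 to 28, which held 8 of those 10 SMC2 and 9 of those 11 CAP-H windows, 11.3% and 6.26% of inner windows had as many. With equal weights these inner shares were 19.1% and 10.3%, against first-base intervals of 21.5 to 69.2 and 26.0 to 74.0. Among far windows 16 held 3 or more SMC2 peaks and 12 as many CAP-H peaks, and 9 of each did without the outermost sites. At 18 of 29 first-base sides the SMC2 count was above the mean inner window of the same chromosome, and at 17 of 29 the CAP-H count was. On most chromosomes that mean was below 1, so a single peak sufficed there and these counts add little to the shares of occupied windows.

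Peaks were denser at the ends than farther inside. For SMC2 the ends carried 51.4 peaks per Mb (43.5 to 60.3), against 5.33 inside. For CAP-H it was 40.7 (33.7 to 48.7), against 3.65. Set against the inside density of the same chromosomes, 149 SMC2 peaks stood where 52.2 would lie at that density, a ratio of 2.85 (2.41 to 3.35). For CAP-H 118 stood against 30.3, a ratio of 3.90 (3.22 to 4.67). On the first-base side alone, where peaks do not set the end, the ratios were 2.18 (1.65 to 2.83) for SMC2 and 3.17 (2.34 to 4.20) for CAP-H. On the far side they were 3.52 and 4.62, and without the outermost peak of each chromosome and those overlapping it 2.41 (1.85 to 3.09) and 3.70 (2.79 to 4.80).

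Within the first 50 kb, SMC2 counts over the 29 chromosomes were 15, 20, 8, 6 and 8 in steps of 10 kb from the first base. CAP-H counts were 15, 13, 8, 4 and 8. Both were thus highest in the outer 20 kb, but the intervals of these 10 kb bins overlapped. For SMC2 the highest and the lowest bin had 69.0 (42.1 to 106.5) and 20.7 (7.59 to 45.0) peaks per Mb. From the far end inward SMC2 had 50, 13, 12, 10 and 7 peaks and CAP-H 29, 11, 13, 7 and 10, where 29 SMC2 and 14 CAP-H peaks belong to the outermost sites that set the end. The outermost SMC2 peak on the first-base side began at a median of 8.01 kb over 20 chromosomes (0.001 to 37.8 kb), and the outermost CAP-H peak at 7.29 kb over 17 (0 to 21.9 kb). In the next 50 kb, from 50 to 100 kb, the density was 25.5 SMC2 (18.0 to 35.2) and 17.2 CAP-H (11.2 to 25.5) peaks per Mb on the first-base side, against 39.3 (29.8 to 50.9) and 33.1 (24.4 to 43.9) in the outer 50 kb. On the far side it was 24.1 (16.8 to 33.6) and 18.6 (12.3 to 27.1), against 63.4 and 48.3 with the peaks that set the end. Without those and the peaks overlapping them, the outer far bin had 43.4 SMC2 (33.4 to 55.6) and 38.6 CAP-H (29.2 to 50.2) peaks per Mb. The SMC2 interval then overlapped that of the next far bin. The CAP-H interval lay above that of the next far bin but overlapped the bin from 200 to 250 kb, at 26.4 (18.6 to 36.4). On the first-base side the intervals of the outer and the next bin overlapped for both subunits. Farther in, the SMC2 bin from 350 to 400 kb reached 31.4 (22.8 to 42.2) and the CAP-H bin from 450 to 500 kb reached 17.1 (10.98 to 25.5), so on that side the outermost bin was not set apart from every inner one for either subunit.

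**Figure D2:**
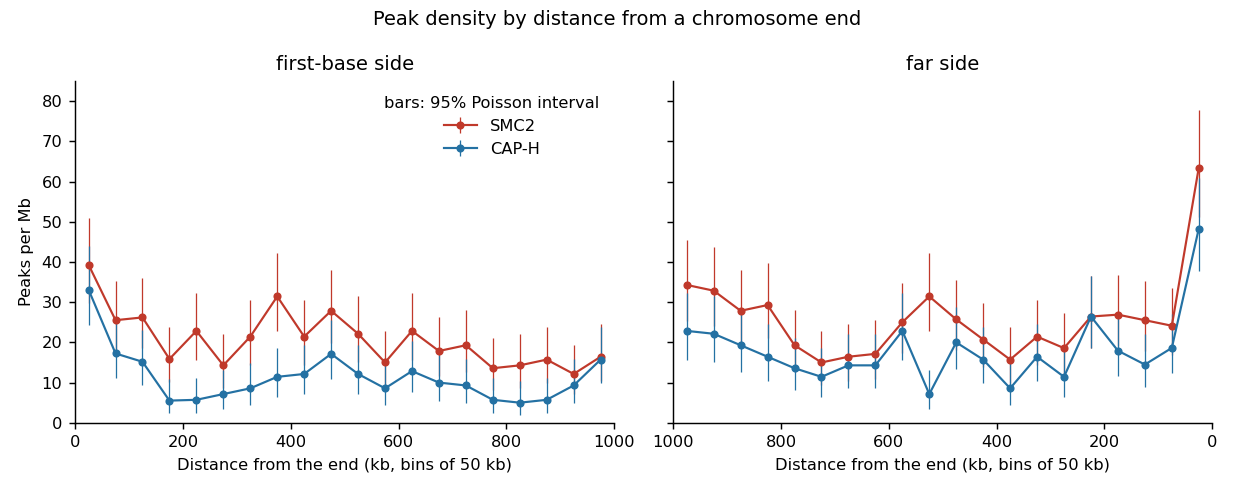
Peaks per Mb in bins of 50 kb by distance from the first base (left) and from the highest listed coordinate (right), over all chromosomes long enough for the bin, with exact Poisson intervals as bars. The outer bin is the highest of each curve, at 39.3 and 63.4 SMC2 and 33.1 and 48.3 CAP-H peaks per Mb; on the far side that bin holds the peaks that set the end.

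Taken as a ratio of densities, the largest and the smallest chromosomes differed less at their ends than inside. As a difference in peaks per Mb, this held only for SMC2 on the first-base side. The intervals at the ends of the largest chromosomes were wide. On the first-base side chromosomes 1 to 5 had 48 SMC2 peaks per Mb (24.8 to 83.8), chromosomes 6 to 10 had 16 (4.36 to 41.0) and chromosomes 11 to 28 had 45.6 (32.7 to 61.8), while inside they had 2.55, 4.06 and 18.1. For CAP-H the first-base values were 24 (8.81 to 52.2), 12 (2.47 to 35.1) and 43.3 (30.8 to 59.2), against 1.90, 3.91 and 10.9 inside. The ratio of the first-base windows to the inside of the same chromosomes was thus 18.1 (9.35 to 31.6) for SMC2 on chromosomes 1 to 5 and 1.69 (1.21 to 2.29) on chromosomes 11 to 28. For CAP-H it was 11.8 (4.33 to 25.7) and 2.88 (2.05 to 3.94). On chromosomes 6 to 10 the first-base ratio was 3.66 (0.996 to 9.36) for SMC2 and 2.88 (0.595 to 8.43) for CAP-H. Both of these intervals held 1. Without the outermost sites, the far side showed another order: SMC2 had 16 (4.36 to 41.0), 48 (24.8 to 83.8) and 52.2 (38.4 to 69.4) peaks per Mb over the classes from large to small, which follows the order of the inside. The far-side ratio to the inside was 6.03 (1.64 to 15.4) on chromosomes 1 to 5, 10.97 (5.67 to 19.2) on chromosomes 6 to 10 and 1.94 (1.42 to 2.57) on chromosomes 11 to 28. CAP-H had 20, 48 and 42.2 peaks per Mb there, with ratios of 9.84 (3.20 to 23.0), 11.5 (5.96 to 20.1) and 2.81 (1.99 to 3.85). On the largest chromosomes the counts were few and unequal: of 12 first-base SMC2 peaks, 5 were on chromosome 4, 4 on chromosome 1, 2 on chromosome 3 and 1 on chromosome 2. All 6 first-base CAP-H peaks of that class were on chromosomes 1 and 4. Chromosome Z had no SMC2 peak at either end and 2 CAP-H peaks on its far side, of 1.93 and 2.06 kb.

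**Figure D3:**
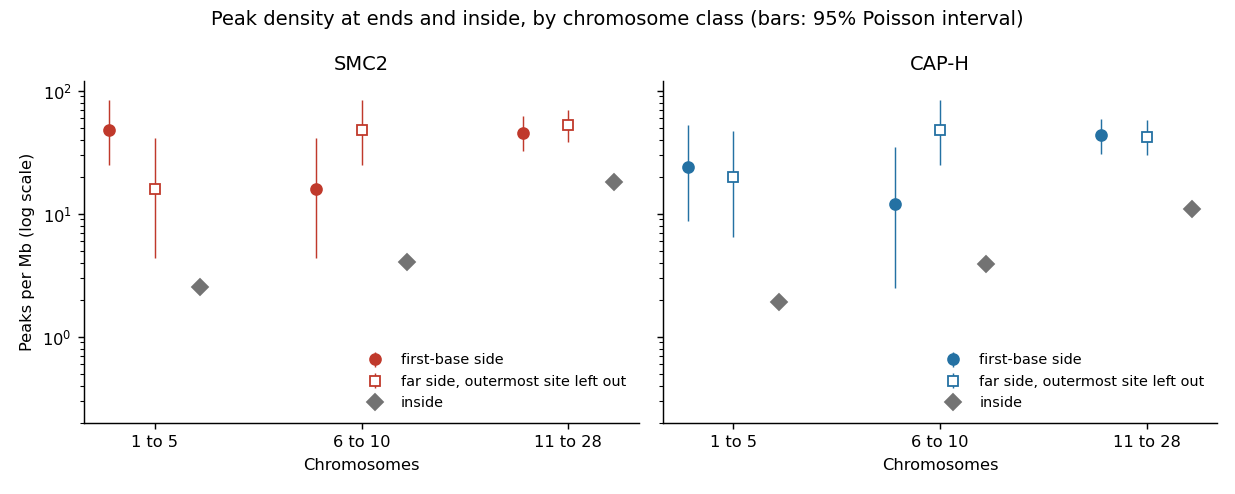
Peaks per Mb (log scale) at the first-base side, at the far side without its outermost site, and inside, for 3 classes of chromosomes, Z left out; bars are exact Poisson intervals, and those of the inside values are not drawn. Inside density rises from 2.55 to 18.1 SMC2 peaks per Mb across the classes, while the first-base values are 48, 16 and 45.6 and the far values 16, 48 and 52.2.

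The first-base side held fewer peaks than the far side, and less clearly so without the outermost far sites. There were 57 first-base and 92 far SMC2 peaks, a ratio of 0.620 (0.437 to 0.871), and 48 and 70 CAP-H peaks, a ratio of 0.686 (0.465 to 1.004). Without the outermost far sites the counts were 57 and 63 for SMC2 and 48 and 56 for CAP-H, with ratios of 0.905 (0.621 to 1.32) and 0.857 (0.571 to 1.28), which do not set the sides apart. With all peaks, chromosomes 1 to 5 had 12 first-base and 9 far SMC2 peaks (1.33, 0.516 to 3.58) and 6 CAP-H peaks on each side. Chromosomes 6 to 10 had 4 and 17 SMC2 peaks (0.235, 0.0576 to 0.721) and 3 and 14 CAP-H peaks (0.214, 0.0395 to 0.768). Outermost sites were left out on the far side only, while first-base windows kept theirs, so the counts without them do not treat the sides alike. Without those sites chromosomes 1 to 5 had 12 first-base and 4 far SMC2 peaks (ratio 3, 0.909 to 12.8), and chromosomes 6 to 10 had 4 and 12 (0.333, 0.0784 to 1.10), both with intervals that hold 1. For CAP-H it was 6 and 5 on chromosomes 1 to 5 (1.2, 0.305 to 4.97) and 3 and 12 on chromosomes 6 to 10 (0.250, 0.0453 to 0.926). The median SMC2 score was 132 on the first-base side (85.7 to 175) and 122 on the far side (92.9 to 154). Median SMC2 widths were 1753 bp (1395 to 2673) and 1464.5 bp (1334 to 1808), and CAP-H widths 1856 bp and 1868 bp, with overlapping intervals for score and SMC2 width.

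SMC2 peaks at the ends scored higher than those inside. The score is the authors' own value per peak, and the CAP-H list has none. The median was 124 at the ends (101 to 144, n = 149), against 73.6 inside (72.5 to 74.5, n = 5323). Beside the inside median of its own chromosome, an end peak scored higher in 104 of 149 cases, with a median ratio of 1.69. End medians were higher than inside medians on 24 of 28 chromosomes with SMC2 end peaks. By class the end and inside medians were 74.8 (55.3 to 175) and 67.0 on chromosomes 1 to 5. On chromosomes 6 to 10 they were 135 (63.9 to 682) and 71.7, and on chromosomes 11 to 28 they were 131 (102 to 169) and 77.7. The interval of the end median thus held the inside value on chromosomes 1 to 5 and on chromosomes 6 to 10.

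Very strong peaks were frequent at the ends. A score of 500 or more was reached by 30 of 149 end peaks (20.1%, 14.0 to 27.5), against 85 of 5323 inside (1.60%, 1.28 to 1.97) and 2.1% of all placed SMC2 peaks. The end windows thus held 26.1% of all such placed peaks. They lay at 8 first-base and 13 far ends, and chromosome 11 alone had them at both, with a score of 2146 at 14202-16367 and of 3100 near its far end. The highest score of the placed SMC2 peaks, 3100, was held by 9 end peaks, 3 on first-base sides (chromosomes 4, 14 and 24) and 6 on far sides (chromosomes 8, 9, 11, 12, 17 and 18). Inside peaks reached 3100 too, and how many did was not counted. Peaks tied at this value cannot be ranked among themselves. The next score among end peaks, 2455, was held by a far peak of chromosome 19 at 9943627-9949691. Each of the 9 had a CAP-H partner of like place. On the first-base sides SMC2 lay at 40150-43671 of chromosome 4 with CAP-H at 40513-43818, at 10036-11430 of chromosome 14 with CAP-H at 10048-11677, and at 7-2820 of chromosome 24 with CAP-H at 1-2857. On the far side of chromosome 8 the pair lay at 28741902-28746871 and 28741874-28746566, and on that of chromosome 9 at 23435765-23440701 and 23435635-23440800. On the far side of chromosome 11 it lay at 19377506-19381654 and 19377513-19380488, and on that of chromosome 12 at 19876899-19880761 and 19876908-19880388. The pair of chromosome 17, at 10394486-10401413 and 10394802-10400855, lay 48.0 kb from the highest listed end and was thus among the members nearest to the limit. On chromosome 18 the SMC2 peak at 11199962-11206058 spanned CAP-H peaks at 11200843-11202729 and 11203233-11206049.

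The first-base side of chromosome 15 had 3 strong peaks within 15 kb, scoring 1163, 925 and 1536. The first-base side of chromosome 14 had a peak of 3100 at 10036-11430 and one of 1985 at 33437-34735. At the other extreme, of the 21 SMC2 peaks that set a far end, 7 scored under 60, the lowest being 50.7 on chromosome 4. Such scores were common inside too, where the score was 59.8 at percentile 27 and 60.2 at percentile 28.

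**Figure D4:**
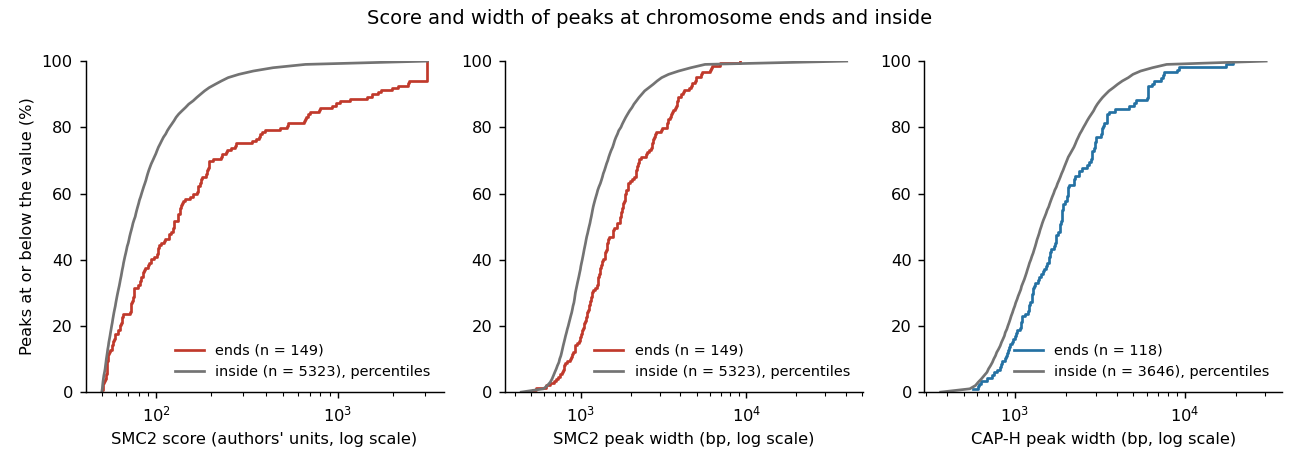
Cumulative share of peaks by SMC2 score, SMC2 width and CAP-H width (log scales), for end peaks (coloured steps) and inside peaks (grey line through percentiles). The end curves lie to the right of the inside curves over most of their length, most for the score, where the end curve still stands near 80% at a score of 500. Both score curves meet 100% only at 3100.

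End peaks were also wider. The median SMC2 width was 1653 bp at the ends (1410 to 1846) and 1123 bp inside (1108 to 1138); the median CAP-H width was 1856 bp at the ends (1598 to 2056) and 1432 bp inside (1398 to 1468). An SMC2 end peak was wider than the inside median of its chromosome in 113 of 149 cases and a CAP-H end peak in 77 of 118, with median ratios of 1.42 and 1.30. End medians were above inside medians on 25 of 28 chromosomes for SMC2 and 22 of 29 for CAP-H. CAP-H peaks that overlapped an SMC2 peak were not wider at the ends, with medians of 1887 bp (1630 to 2226) and 1958 bp inside. For the other CAP-H peaks the end median was 1592 bp (1143 to 2062), an interval that holds the inside median of 1215 bp. SMC2 end medians were higher with a partner (1925 bp, 1768 to 2295, against 1467 inside). Without a partner they were higher too (1295.5 bp, 1135 to 1459, against 1028). Peaks of 5 kb or wider were 7 of 149 SMC2 end peaks (4.70%, 1.91 to 9.44), against 78 of 5323 inside (1.47%) and 1.55% of all placed peaks. For CAP-H they were 16 of 118 (13.6%), against 143 of 3646 inside (3.92%) and 4.22% of all placed peaks. With a partner they were 7.23% (2.70 to 15.1) for SMC2, against 3.54% inside, and 13.3% (6.81 to 22.5) for CAP-H, against 8.46%. Both intervals held the inside value. Without a partner they were 1.52% (0.0384 to 8.16) for SMC2, against 0.520% inside, and 14.3% (4.81 to 30.3) for CAP-H, against 0.660%. Here the SMC2 interval held the inside value and the CAP-H interval lay above it. Together the peaks covered 309 kb (10.7%) of the 2900 kb of end windows for SMC2 and 306 kb (10.6%) for CAP-H, against 0.768% and 0.694% of the inside. These shares pool the bases of all chromosomes, and 12064 of 19945 inner windows lay on chromosomes 1 to 5, where inside peaks were sparse. Covered shares against the inside of the same chromosomes were not computed.

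The widest SMC2 end peak, of 9.16 kb, began at the first listed bases of chromosome 16, at 2-9164, scored 2432 and lay over a CAP-H peak of 7.24 kb at 7-7243. In chicken the ribosomal RNA genes and the MHC lie on this small chromosome. The others were peaks of 6.93 kb on the far side of chromosome 17, 6.18 kb at the first base of chromosome 4, 6.10 kb on the far side of chromosome 18 and 6.07 kb on that of chromosome 19. Each overlapped a CAP-H peak. Their scores were 3100, 102, 3100 and 2455, so the wide peak on chromosome 4 scored below the median end peak. Peaks of both lists began in the first 100 bp of chromosomes 4, 16 and 24, and a CAP-H peak did so on chromosome 23, and such peaks cannot reach farther out in this build. The CAP-H peak of 6.10 kb at 1-6095 of chromosome 4 overlapped the SMC2 peak at 2-6179.

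The 5 widest CAP-H end peaks included 4 that had no SMC2 partner. On the first-base side of chromosome 27 they measured 19.3 kb at 4611-23927 and 9.23 kb at 37555-46788, and on that of chromosome 17 they measured 17.5 kb at 16418-33880 and 9.02 kb at 34433-43453. The other one, of 7.52 kb at 4068866-4076387 on the far side of chromosome 22, overlapped 3 SMC2 peaks. Each window held 1 further CAP-H peak, of 6.43 kb on chromosome 17 and 3.24 kb on chromosome 27. Counted in full, the CAP-H peaks amounted to 32.9 kb and 31.8 kb there. The peak of 6.43 kb, at 48350-54777, reached beyond its window. The nearest SMC2 peak began 60.7 kb from the first base on chromosome 17 and 54.0 kb on chromosome 27. Those 2 windows held 5 of the 16 CAP-H end peaks of 5 kb or wider, and all 5 that were unshared. Among unshared CAP-H peaks inside, 14 of 2122 (0.660%) were as wide. The CAP-H list has no score, so whether these wide peaks are strong was not measured.

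Ends with SMC2 alone had peaks of low to moderate score. The first-base sides of chromosomes 2, 3, 6, 12, 19, 20 and 22 had 1 to 3 SMC2 peaks each, of 747 to 3818 bp, and their highest scores were 72.5, 72.9, 63.9, 65.7, 82.2, 194 and 245, all under 500. The nearest CAP-H peak lay 65.5 to 93.5 kb from the first base on chromosomes 12, 19, 20 and 22, and 271, 1576 and 1050 kb from it on chromosomes 2, 3 and 6. On the far sides of chromosomes 1 and 4 the lone SMC2 peak also set the end, with scores of 56.8 and 50.7. CAP-H alone was found on the first-base sides of chromosomes 9 and 28 too, with 1 peak of 1067 bp and 3 peaks of 832 to 1192 bp.

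Peaks were shared between the subunits more often at the ends than inside. A peak was called shared if it had at least 1 bp in common with a peak of the other subunit. Of SMC2 end peaks, 83 of 149 were shared (55.7%, 47.3 to 63.8), against 1667 of 5323 inside (31.3%, 30.1 to 32.6) and 32% of all placed SMC2 peaks. Of CAP-H end peaks, 83 of 118 were shared (70.3%, 61.2 to 78.4), against 1524 of 3646 inside (41.8%, 40.2 to 43.4) and 42.7% of all placed. With the inside share taken from the same chromosomes, it was 33.2% for SMC2 and 48.5% for CAP-H. Shares at the ends were above that of the inside on 23 of 28 chromosomes for SMC2 and 23 of 29 for CAP-H. On the first-base side they were 49.1% (35.6 to 62.7) and 62.5% (47.4 to 76.0), and on the far side 59.8% (49.0 to 69.9) and 75.7% (64.0 to 85.2). For first-base CAP-H peaks the inside share of the same chromosomes, 50.9%, lay within the interval, and so the excess there was not beyond counting error. By chromosome, the first-base SMC2 share was above that of the inside on 10 and below it on 10. Pooled over all chromosomes, peaks of each list covered over 10% of the end windows and under 1% of the inside. The part of this coverage in the shares was not tested.

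By class, CAP-H sharing at the ends was 10 of 12 on chromosomes 1 to 5 (83.3%, 51.6 to 97.9), 13 of 17 on chromosomes 6 to 10 (76.5%, 50.1 to 93.2) and 60 of 87 on chromosomes 11 to 28 (69.0%, 58.1 to 78.5), against 30.5%, 32.6% and 52.6% inside. SMC2 sharing was 47.6% (25.7 to 70.2), 61.9% (38.4 to 81.9) and 56.1% (46.1 to 65.7) at the ends, against 24.1%, 36.1% and 34.7% inside. All 30 SMC2 end peaks with a score of 500 or more were shared, as were 83 of the 85 inside, so nearly all strong peaks were shared in either place. The shared end peaks had a median score of 195, against 75.1 for the 66 unshared ones.

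Since strong peaks were shared more often everywhere, ends and inside were also compared within groups of score. In 5 equal groups of the placed SMC2 list by score, 77 of 149 end peaks fell in the highest group. Within that group 75.3% of end peaks (64.2 to 84.4) and 69.6% of inside peaks (66.7 to 72.5) were shared, and in the lowest group 21.1% (6.05 to 45.6) and 13.8% (11.8 to 15.96). With inside peaks weighted to the 5 score groups of the end peaks, 47.0% were shared, just under the interval of the 55.7% at the ends. Scores were not matched within groups, and the highest group ran from 121 to 3100. In it, 30 of 77 end peaks but 85 of 1018 inside peaks scored 500 or more, and the part of this in the shares was not tested. In 5 groups by width, the narrowest CAP-H peaks were shared in 60% of cases at the ends (32.3 to 83.7) and 18.9% inside (16.1 to 21.9), and the widest in 76.3% (59.8 to 88.6) and 73.0% (69.6 to 76.3). Weighted to the width groups of the end peaks, 48.6% of inside CAP-H peaks were shared, against 70.3% at the ends. The excess was thus smaller for SMC2 once the score groups were weighted alike. For CAP-H it was largest in the narrowest group and within counting error in the widest.

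**Figure D5:**
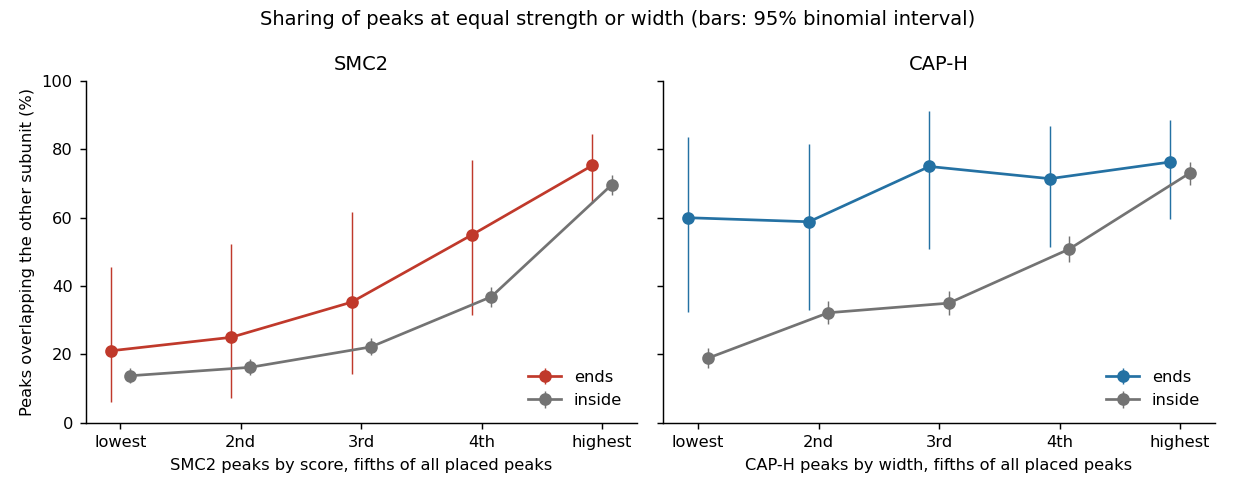
Percentage of peaks that overlap a peak of the other subunit, in 5 equal groups of all placed peaks by SMC2 score (left) and by CAP-H width (right), for end peaks (coloured) and inside peaks (grey), with exact binomial intervals as bars. For SMC2 the end intervals hold the inside values in every group; for CAP-H they lie above the inside values in the 4 lower groups, from 60% against 18.9% in the lowest, and not in the highest.

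Partners at the ends had edges in common more often than those inside. The 93 overlapping pairs at the ends had in common a median of 52.8% of their joint span, against 47.5% for 1779 pairs inside. In 35 of the 93 (37.6%, 27.8 to 48.3) at least 1 edge of the SMC2 peak lay within 50 bp of the same edge of the CAP-H peak, against 16.2% inside (14.5 to 18.0). Among pairs with an SMC2 score of 500 or more it was 21 of 36 at the ends (58.3%, 40.8 to 74.5), against 24 of 110 inside (21.8%, 14.5 to 30.7). Of these strong pairs, 24 of 36 at the ends but 43 of 110 inside were 1 peak with 1 partner. In the rest a peak entered several pairs, and the part of this in the edges was not tested. Over all pairs, 59 of 93 at the ends and 1146 of 1779 inside were 1 to 1. On chromosome 14 the SMC2 peak at 33437-34735 and its CAP-H partner at 33439-34735 ended at the same base. On chromosome 15 the partners at 10126-11206 and 10117-11206 did too. Pairs with such edges included those that began at the first bases of chromosomes 4, 16 and 24, where neither peak can reach farther out. They also included far pairs of chromosomes 6, 19 and 21, of which 1 peak sets the highest listed end. Inside pairs have no like edges, and the share without these pairs was not counted. The SMC2 peak was as wide as its partner at the ends, with a median ratio of widths of 1.01, while inside it was narrower, with a ratio of 0.768. Among pairs with an SMC2 score of 500 or more the ratio was 1.19 at the ends and 1.15 inside, so at that strength SMC2 was the wider in both places.

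Some end peaks lay over several peaks of the other subunit. On the far side of chromosome 28 a CAP-H peak of 7.47 kb at 4732780-4740245 overlapped 4 SMC2 peaks, the most of any end peak. On the far sides of chromosomes 22 and 25 CAP-H peaks of 7.52 kb and 6.58 kb overlapped 3 SMC2 peaks each. In all, 10 of 149 SMC2 end peaks (6.71%, 3.27 to 12.0) had 2 or more partners, against 1.92% inside. For CAP-H it was 6 of 118 (5.08%, 1.89 to 10.7), against 5.95% inside, which lies within the interval. Among shared peaks alone it was 12.0% (5.93 to 21.0) for SMC2, against 6.12% inside, and 7.23% (2.70 to 15.1) for CAP-H, against 14.2%. Both of these inside values lie within the intervals. The smallest CAP-H peak with 2 partners was 943 bp wide, on the far side of chromosome 7. Of the 66 unshared SMC2 end peaks, 19 lay within 5 kb of a CAP-H peak (28.8%, 18.3 to 41.3), against 17.6% of unshared peaks inside. Beyond 50 kb lay 12 (18.2%), the farthest at 1537 kb, against 44.3% inside. The median distance of the 66 was 9.45 kb (6.23 to 23.7), against 38.0 kb inside. Of the 35 unshared CAP-H end peaks, 11 lay within 5 kb of an SMC2 peak (31.4%, 16.9 to 49.3), against 24.8% inside. Beyond 50 kb lay 6 (17.1%), against 40.7% inside. The median distance of the 35 was 9.89 kb (5.58 to 18.6), against 28.7 kb inside. Peaks were denser at the ends, as given above, and the part of this in the distances was not tested.

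At the 50 kb limit the last first-base SMC2 member began 48520 bp from the end (chromosome 26, score 93.0) and the next peak 51744 bp (chromosome 16, score 86.2). On the far side the last SMC2 member ended 49622 bp from the end, on chromosome 22, and the next peak 54147 bp, on chromosome 24. For CAP-H the last first-base member was the 6428-bp peak of chromosome 17, at 48349 bp, and the next lay at 53324 bp on chromosome 24. The last far CAP-H member lay at 49630 bp on chromosome 22, and the next at 50019 bp on chromosome 13.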

How the data were processed

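The data are 2 peak lists that the authors deposited, 1 for each pull-down library. Peaks bear MACS names in both lists, with no version, control or cutoff stated in the sources used here. BWA and build galGal4 are named in the submitters' processing notes, and single-end reads of 50 bp per the labels' protocols. In the SMC2 list the authors deposited a score beside each peak, on a scale that no header explains, and in the CAP-H list none. The deposited TSS profiles hold no value per region and were not used. Coordinates count from 0 in the files and are printed from 1.

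Ends were taken with the rule given in the report, since no chromosome lengths of that build were used here; the true far end can lie beyond the highest peak. The members, measures and regions to name were chosen with earlier results of these data known. Named were the 10 end peaks of highest score, the 5 widest per list, the 5 ends with most peaks, ties included, and the peaks beside the limit; others that are named were chosen after their values were seen. Inner windows of 50 kb counted peak starts, and an end-to-inside ratio divides the count by the count expected from the inside density of each chromosome, whose own error is not in the interval. Counts have exact Poisson, shares exact Clopper-Pearson, ratios of counts exact conditional and medians order-statistic intervals, at 95%. With 1 library per subunit no test was made. Python 3.11.15, numpy 2.4.6, pandas 2.3.3, scipy 1.17.1 and matplotlib 3.10.9 were used, and the counting was checked on simulated lists.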

Additional observations from a re-analysis of the deposited data

How the results depend on the processing

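Of 77 alternative values for 9 results, 54 stayed within the interval of the main value and 23 moved beyond it. All 19 density ratios stayed above 1, and the first-base to far ratios under these settings stayed below 1. Only the setting without the outermost far sites was made to leave out the peaks that set the far end. Chromosomes 1 to 5 alone, with first-base to far ratios of 1 or more, were not among the settings. Shares, widths and the score were judged only by whether they moved, not by direction. The SMC2 and CAP-H end density ratios were 4.22 and 5.20 with windows of 25 kb, 2.16 and 2.81 with 100 kb, 2.13 and 2.79 against bases 50 to 500 kb from an end, 2.20 and 3.21 on chromosomes 11 to 28, and 2.18 and 3.17 on the first-base side. For SMC2 the ratio was 2.30 without the outermost far sites, 2.41 on the far side without them and 3.57 with the upper 50% of peaks by score. The first-base to far ratio without those sites was 0.905 (0.621 to 1.32) for SMC2 and 0.857 (0.571 to 1.28) for CAP-H. Both intervals hold 1. SMC2 sharing was 67.9% with the upper 50% by score, against 47.0% inside, and 65.1% on the far side without the outermost sites. When 50% of both peaks had to overlap, 34.9% of SMC2 end peaks were shared, against 16.9% inside, and 44.1% of CAP-H end peaks, against 24.6% inside. Merging peaks within 1 kb gave SMC2 end peaks a median width of 1874 bp and CAP-H end peaks 2267 bp, and the upper 50% by score gave 1953.5 bp for SMC2. The median SMC2 score was 97.5 with windows of 100 kb and 176.7 with the upper 50% by score. The first-base and far-side settings were chosen after seeing the data. No paired analysis was possible because each group has 1 library. Depth limits all counts: weak sites below the peak caller's threshold are not in the lists.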
